A study of Rattus norvegicus with 36 samples.

Results

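The genes described here are replication and mitosis genes of the cell cycle in rat aorta. They were taken from a list of 46 symbols, 16 for replication and 30 for mitosis, by symbol, keeping those whose value in the deposited gene table averaged 0.2 or more across 34 libraries. Of the listed symbols, 44 had a row and all 44 passed, 15 replication genes and 29 mitosis genes, out of 26106 genes in the table; E2f1 and Ccnb2 were not analysed here. All 44 also reached the mean of 0.5 that was asked of a gene before testing. The aortas came from male rats of 3 strains. SS is the Dahl salt-sensitive strain, whose blood pressure rises on dietary salt. S2Ba is a congenic SS rat that carries the distal portion of chromosome 2 of the Brown Norway (BN) rat, and S2Bb carries a middle segment of that chromosome in its place. The rats were 4 to 6 weeks old at the start and ate either chow of normal salt content or chow with 4% NaCl, called high salt here, until 12 to 13 weeks of age. RNA was taken from a piece of the descending thoracic aorta, a whole vessel wall that is mostly smooth muscle, so a level is an average over all cells of that piece. Values were used from 6 SS, 6 S2Ba and 6 S2Bb libraries on normal salt, and from 5 SS, 5 S2Ba and 6 S2Bb libraries on high salt. Not analysed here were SS replicate 3 and S2Ba replicate 2 on high salt.

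Cells that leave rest pass from G1 into S phase, when DNA is copied, and then through G2 into mitosis. E2F factors switch on the enzymes and helicase subunits of S phase. Genes of G2 and mitosis are switched on later, through CHR elements and CCAAT boxes bound by the MuvB-based complexes and NF-Y, and in resting cells the DREAM complex holds both sets low. In the adult artery few smooth muscle, endothelial or adventitial cells divide, and transcripts of these genes are commonly read as a sign of dividing cells. In whole tissue, fewer cells of a type and less RNA per cell cannot be told apart, nor can the type of the cells that hold the transcripts.

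The deposited values were gene read counts divided by a size factor of each library, and they are not corrected for gene length. A value is called a level below, and levels are compared between libraries, not between genes. Libraries held 8753735 to 15168833 reads, and 1 read was worth 0.0659 to 0.12 of a level. The titles number the animals, but no label says in words that each library is a separate animal, so p-values measure the spread between these libraries. The main test pooled the spread of each gene over all groups. An SE or p-value given for a strain is therefore not set by the libraries of that strain alone. High salt animals carry higher numbers than normal salt animals except for S2Bb high salt replicates 2 and 3, so diet and any set of animals kept or processed together cannot be told apart. Libraries also differed in clock genes such as Arntl and Dbp, whose levels follow the time of day. Those values are given beside the results they touch.

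The promoters of the replication and mitosis genes carried different motifs. A link between these motifs and the salt response below was not tested. RefSeq promoter sequences of the GRCr8 assembly, 250 bases before to 50 bases after the start, matched 35 of the 44 genes, 11 for replication and 24 for mitosis. A CHR (TTTGAA or TTTAAA, either strand) lay in 23 of 24 mitosis promoters (95.8%), in 2 of 11 replication promoters (18.2%) and in 27.9% of all 27457 promoters. The mitosis promoter without it was that of Cdca3. A CCAAT box (CCAAT, either strand) was found in 19 of 24 mitosis promoters (79.2%), in 7 of 11 replication promoters (63.6%) and in 37.7% of all. Both a CHR and a CCAAT box were present in 18 of 24 mitosis promoters (75%), in 0 of 11 replication promoters and in 11.1% of all. An E2F motif (TTTCCCGC, TTTGGCGC, TTTCGCGC or TTTGCCGC, either strand) showed the opposite distribution, with 6 of 11 replication promoters (54.5%), 1 of 24 mitosis promoters (4.17%) and 2.25% of all. A match is a run of letters and not a site shown to be bound.

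**Figure D1:**
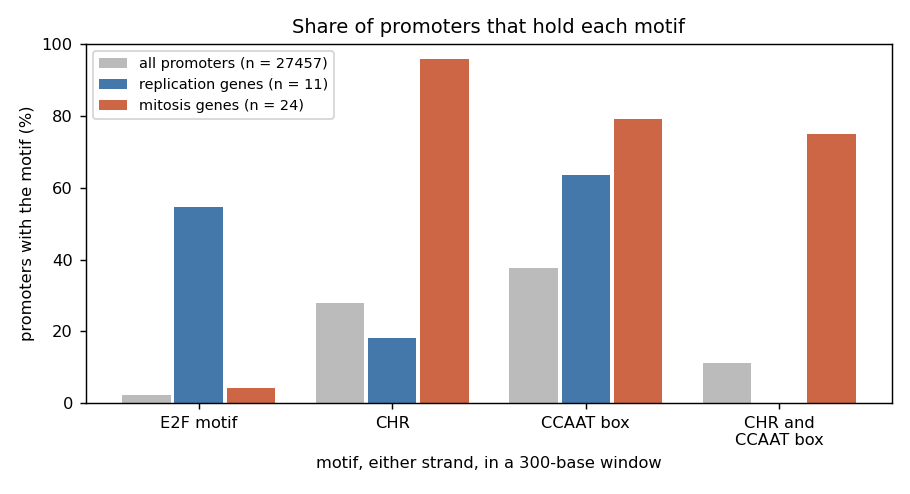
Share of promoters (in percent) that hold an E2F motif, a CHR, a CCAAT box or both a CHR and a CCAAT box in a window of 300 bases, for all 27457 RefSeq promoters (grey), 11 replication genes (blue) and 24 mitosis genes (orange). The CHR bar is at 95.8% for mitosis genes and 18.2% for replication genes, and the E2F bars are at 4.17% and 54.5%.

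The 250 bases before the start are given for the 4 mitosis and 3 replication genes with the highest mean level among those matched, 5′ to 3′ on the strand of the gene. Capitals mark every match to a CHR, a CCAAT box or an E2F motif on either strand, and overlapping matches run together. Coordinates are those of GRCr8. Mki67 lies at chr1:199952594-199952843 (minus strand), Top2a at chr10:84473094-84473343 (minus strand), Anln at chr8:29197514-29197763 (minus strand) and Prc1 at chr1:143659231-143659480 (plus strand). Among replication genes, Rrm1 lies at chr1:166235654-166235903 (plus strand), Pcna at chr3:139955821-139956070 (minus strand) and Mcm7 at chr12:22163179-22163428 (minus strand).
Mki67: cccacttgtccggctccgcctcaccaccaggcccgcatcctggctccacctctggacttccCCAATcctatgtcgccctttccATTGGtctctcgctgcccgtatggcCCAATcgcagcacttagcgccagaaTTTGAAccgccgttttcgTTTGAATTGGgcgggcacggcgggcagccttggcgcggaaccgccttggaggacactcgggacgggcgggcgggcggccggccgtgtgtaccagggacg
Top2a: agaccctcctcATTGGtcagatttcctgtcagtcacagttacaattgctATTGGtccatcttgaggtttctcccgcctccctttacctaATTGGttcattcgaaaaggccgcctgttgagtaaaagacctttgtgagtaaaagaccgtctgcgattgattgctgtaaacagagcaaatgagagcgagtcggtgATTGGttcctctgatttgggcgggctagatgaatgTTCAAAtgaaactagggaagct
Anln: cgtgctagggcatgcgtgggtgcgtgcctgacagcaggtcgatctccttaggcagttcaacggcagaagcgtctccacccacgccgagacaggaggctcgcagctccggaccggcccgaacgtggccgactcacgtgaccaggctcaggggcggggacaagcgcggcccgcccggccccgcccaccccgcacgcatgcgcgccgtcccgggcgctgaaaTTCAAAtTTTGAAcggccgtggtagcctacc
Prc1: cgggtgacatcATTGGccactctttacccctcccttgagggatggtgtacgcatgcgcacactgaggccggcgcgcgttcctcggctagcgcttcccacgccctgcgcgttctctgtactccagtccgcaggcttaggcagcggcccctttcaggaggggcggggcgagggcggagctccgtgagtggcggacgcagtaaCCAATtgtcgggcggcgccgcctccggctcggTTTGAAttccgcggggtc
Rrm1: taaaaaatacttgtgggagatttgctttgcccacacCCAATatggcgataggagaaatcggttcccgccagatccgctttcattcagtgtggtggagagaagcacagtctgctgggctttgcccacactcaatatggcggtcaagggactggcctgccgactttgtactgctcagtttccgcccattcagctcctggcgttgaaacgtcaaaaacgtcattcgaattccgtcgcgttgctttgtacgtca
Pcna: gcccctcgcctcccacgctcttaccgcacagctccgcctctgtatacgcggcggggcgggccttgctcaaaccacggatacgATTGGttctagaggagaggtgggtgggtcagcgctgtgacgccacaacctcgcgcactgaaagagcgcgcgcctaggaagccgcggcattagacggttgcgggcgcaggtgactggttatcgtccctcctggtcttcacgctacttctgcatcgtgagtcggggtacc
Mcm7: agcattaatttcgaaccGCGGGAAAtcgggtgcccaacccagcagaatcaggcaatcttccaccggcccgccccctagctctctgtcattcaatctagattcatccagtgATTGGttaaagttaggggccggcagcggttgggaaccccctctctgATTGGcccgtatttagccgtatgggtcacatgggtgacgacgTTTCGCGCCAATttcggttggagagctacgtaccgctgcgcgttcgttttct

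The first base of the CHR was at -117 and -99 in Mki67, at -22 in Top2a, at -31 and -24 in Anln and at -18 in Prc1, counting the base before the start as -1. Mki67 and Top2a each held 4 CCAAT boxes, Prc1 held 2 and Anln held 0. Rrm1 and Pcna held 1 CCAAT box each and no match to a CHR or to the E2F letters searched. Mcm7 held E2F motifs at -233 and -52, and 3 CCAAT boxes.

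On high salt, many of the cell cycle genes rose in all 3 strains, with a larger median fold change for mitosis genes than for replication genes, a gap that surrogate variables nearly removed in SS and S2Ba rats. A gene was called when its adjusted p fell below 0.05 in limma on log2(value + 0.5) across 13475 tested genes, with Benjamini-Hochberg adjustment over all of them. The 44 genes were listed with earlier results of these data known, so counts above the shares of all tested genes are not independent support. In SS rats 24 of 44 genes rose and 0 fell, against 4.44% of all tested genes called higher and 3.94% called lower. In S2Ba rats 37 rose and 0 fell, against 8.12% higher and 7.04% lower, and in S2Bb rats 36 rose and 0 fell, against 10.7% and 11.4%. Every one of the 44 fold changes was above 0 in each strain in that fit, called or not; the exceptions under other settings, all of them in genes that were not called, are given with those genes. The median log2 fold change of the mitosis genes was 1.25 in SS, 1.55 in S2Ba and 1.8 in S2Bb rats, and that of the replication genes 0.63, 0.59 and 0.72, beside medians over all tested genes of -0.018, -0.011 and -0.0016. Log2 fold changes on this scale understate the change of genes with low levels.

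The same count by class was 19 of 29 mitosis and 5 of 15 replication genes in SS rats, 27 and 10 in S2Ba rats, and 27 and 9 in S2Bb rats. In all 3 strains, 23 genes rose, 4 of them replication genes (Mcm6, Mcm3, Tk1 and Mcm5) and 19 mitosis genes, against 2.06% of all tested genes. Another 11 rose in 2 strains and 6 in 1 strain, while Mcm4, Mcm7, Cdc45 and Plk1 were called in none. Every high salt library lay above every normal salt library for 21 of 44 genes in SS rats (3.34% of all tested genes), 5 in S2Ba rats (2.96%) and 17 in S2Bb rats (5.31%). The count in SS rats moved most with single libraries, to 13 without normal salt replicate 5, 9 without normal salt replicate 6, 10 without high salt replicate 2, 15 without high salt replicate 4 and 11 without high salt replicate 5. Between 1.96% and 6.1% of all tested genes were called higher with 1 SS library left out. The count was 12 with no filter on low genes (1.41% of all genes called higher). The main fit pooled the spread of each gene over all groups, although groups differed in spread. The median SD of mitosis genes, in percent of the mean, was 71.1% in S2Ba and 21.5% in SS high salt libraries. On normal salt it was 48.6% and 51.6%. Fitted to the compared groups alone, limma called 28 genes higher in SS, 29 in S2Ba and 36 in S2Bb rats. The shares of all tested genes called higher were then 4.87%, 4.5% and 11.1%. DESeq2 also called Mcm4, Ccna2 and Cdca3 in SS rats, Mcm2, Rrm1, Bub1 and Plk1 in S2Ba rats and Ccne1 in S2Bb rats. edgeR called Mcm2, Bub1 and Plk1 in S2Ba rats and Ccne1 in S2Bb rats. None of these passed there in the main limma fit. With 8 surrogate variables (unlabelled differences between libraries, estimated by sva) as covariates, 2 genes rose in SS, 6 in S2Ba and 15 in S2Bb rats, at median log2 fold changes of 0.86, 0.86 and 0.82, against 1.8%, 1.82% and 6.81% of all tested genes called higher. The 2 of 44 genes in SS rats stand near that background. In the same fit the medians of mitosis and replication genes were 0.86 and 0.85 in SS, 0.86 and 0.85 in S2Ba and 1.04 and 0.77 in S2Bb rats, so the gap between the classes was nearly gone in SS and S2Ba rats.

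**Figure D2:**
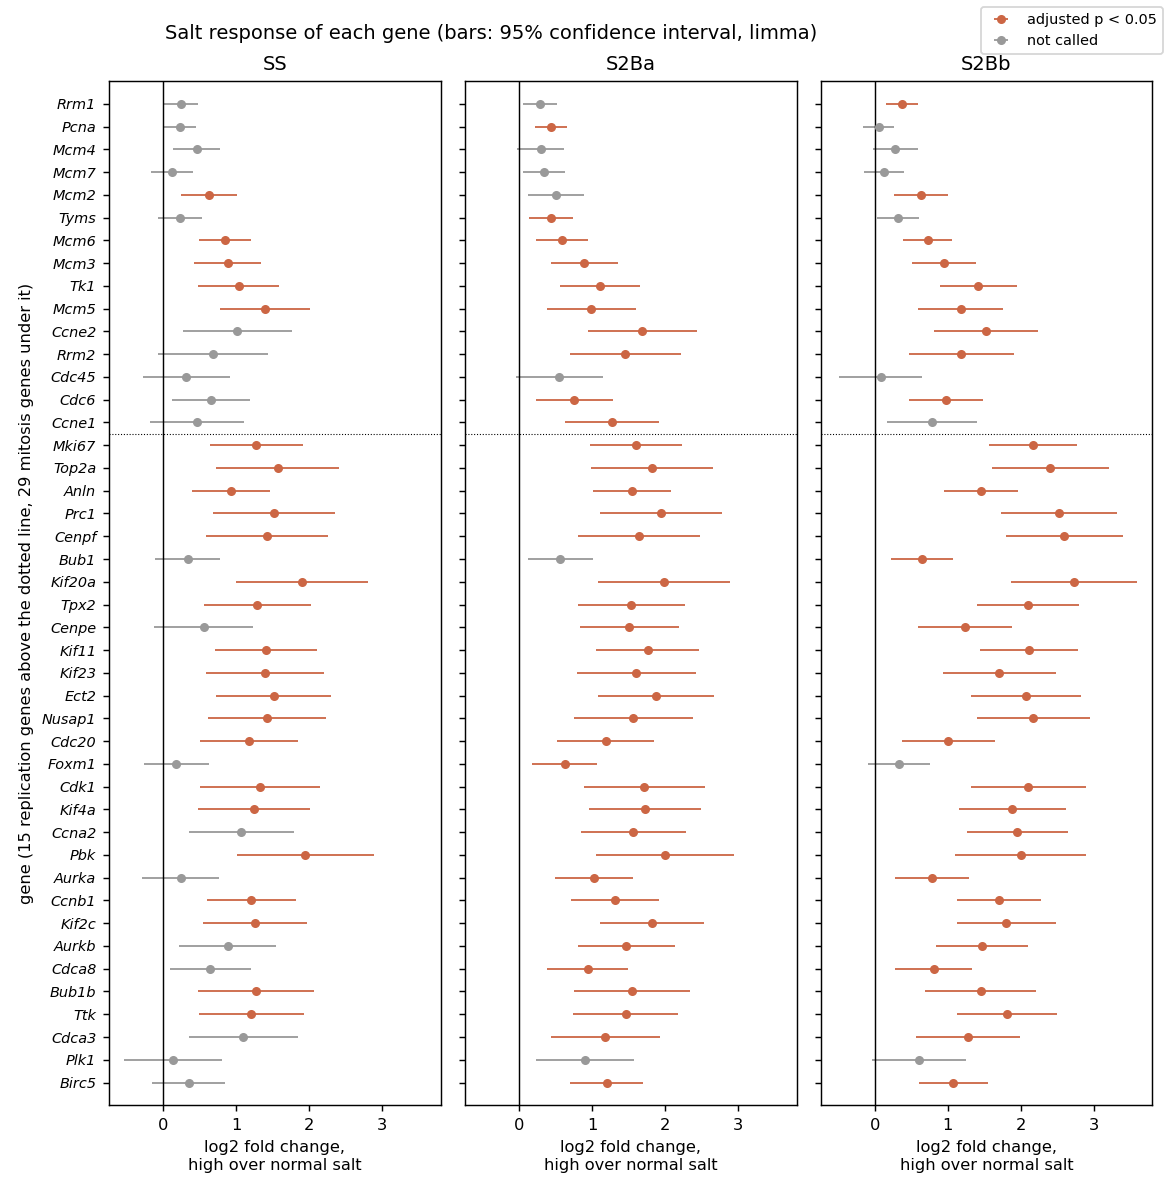
Log2 fold change of high over normal salt (x axis) for each of 44 genes (y axis) in SS, S2Ba and S2Bb rats, with 95% confidence intervals from limma. Points in orange had an adjusted p below 0.05 (24, 37 and 36 genes) and grey points did not; mitosis genes under the dotted line reach 1.95 in SS, 2.00 in S2Ba and 2.73 in S2Bb rats.

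Summed over the 29 mitosis genes, the level rose from 77.8 ± 26.6 (SD, n = 6) to 180.2 ± 32.1 (n = 5) in SS rats, from 92.1 ± 37.6 (n = 6) to 334 ± 219.95 (n = 5) in S2Ba rats and from 65.9 ± 21.2 (n = 6) to 271 ± 107 (n = 6) in S2Bb rats, ratios of 2.32, 3.63 and 4.10. The summed level of the 15 replication genes went from 117 ± 18.6 to 158 ± 21.6, from 136 ± 16.3 to 199 ± 52.3 and from 127 ± 7.30 to 171 ± 22.5, ratios of 1.35, 1.46 and 1.35. These sums describe the libraries and were not tested. Genes with high levels weigh most in a sum. Among replication genes these were Rrm1, Pcna and Mcm4, with mean levels of 34.1, 32.7 and 21.1, called for salt in 1, 1 and 0 strains. Among mitosis genes they were Mki67 and Top2a, with mean levels of 20.7 and 16.4, each called in 3 strains.

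**Figure D3:**
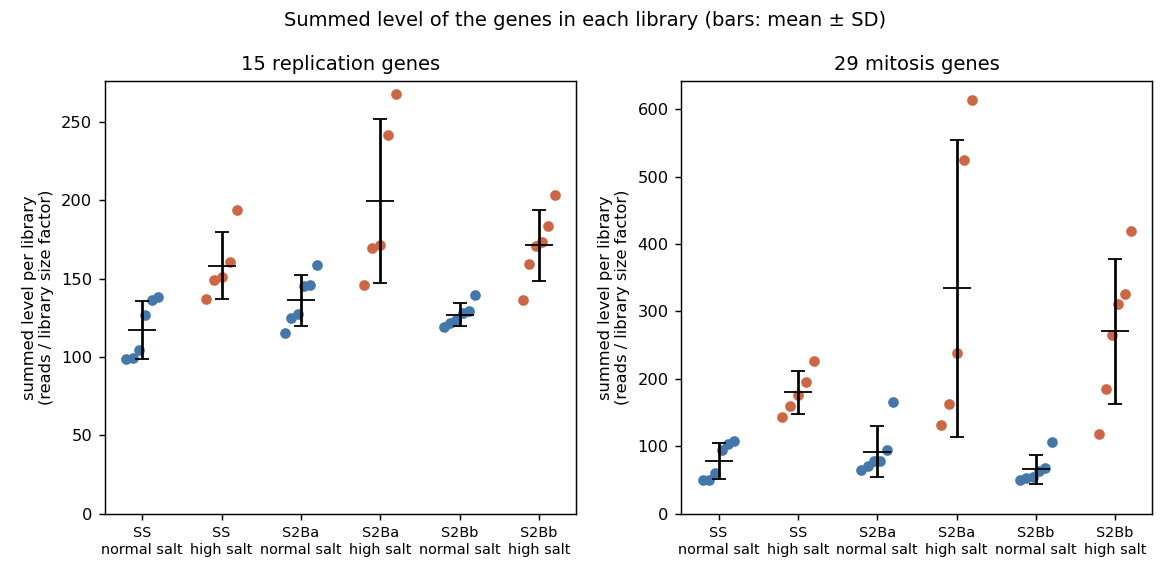
Summed level (reads divided by the library's size factor) of 15 replication genes (left) and 29 mitosis genes (right) in each library, by strain and diet; points are libraries and bars the mean ± SD. Mitosis sums of S2Ba high salt libraries run from 132 to 613, and those of SS high salt libraries from 143 to 226.

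Among replication genes, the subunits of the MCM helicase, which unwinds DNA ahead of the replication fork, did not move alike. For groups of 6 libraries the lowest, the median and the highest level are given, and for groups of 5 every level. In SS rats the Mcm6 level was 3.6, 5.55 and 6.62 on normal salt and 8.03, 8.82, 8.92, 9.12 and 14.3 on high salt. S2Ba rats had Mcm6 levels of 5.82, 8.19 and 9.57 on normal salt and 8.1, 9.78, 12.2, 13.8 and 17.3 on high salt. In S2Bb rats Mcm6 was at 5.11, 6.24 and 6.8 on normal and 8.11, 10.03 and 13.1 on high salt. Ranges were apart in SS and S2Bb rats and overlapped in S2Ba rats. Mcm6 rose in each strain, by a log2 fold change of 0.85 ± 0.17 (adjusted p = 0.00395) in SS, 0.59 ± 0.17 (adjusted p = 0.02) in S2Ba and 0.72 ± 0.17 (adjusted p = 0.00186) in S2Bb rats (limma, SE after the sign). Mcm3 levels in SS aortas were 2.4, 2.71 and 4.52 on normal salt and 4.17, 5.14, 5.88, 6.85 and 8.28 on high salt. In S2Ba aortas they were 3.2, 3.88 and 4.97 and 4.21, 6.2, 7.08, 11.6 and 12.3 in the same order. For S2Bb the levels were 2.37, 2.63 and 3.4 and 2.91, 6.6 and 8.66. Mcm3 ranges overlapped in all 3 strains, in SS and S2Ba rats through 1 high salt library each, and the gene rose by 0.88 ± 0.23 (adjusted p = 0.0149), 0.89 ± 0.23 (adjusted p = 0.00657) and 0.94 ± 0.21 (adjusted p = 0.00167) in SS, S2Ba and S2Bb rats. Mcm5 also rose in each strain, from a mean of 1.95 ± 0.846 to 6.04 ± 2.77 in SS rats, with 5 of 5 high salt libraries above all on normal salt there.

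On normal salt SS libraries had Mcm2 levels of 6.37, 7.41 and 10.5, and on high salt 9.21, 11.5, 11.5, 13 and 18.7. Those of S2Ba rats went from 7.73, 9.14 and 11.2 to 7.37, 13.2, 15, 15.2 and 18.2. S2Bb libraries had 6.84, 8.29 and 10.3 on normal and 8.32, 13.4 and 19.3 on high salt. The highest normal salt library stood above the lowest high salt library for Mcm2 in every strain. Mcm2 rose in SS rats (0.63 ± 0.19, adjusted p = 0.0375) and in S2Bb rats (0.63 ± 0.18, adjusted p = 0.0111), and in S2Ba rats its log2 fold change was 0.50 ± 0.19 (adjusted p = 0.0695). SS rats had Mcm4 levels of 12, 17.8 and 21.6 on normal salt and of 17.4, 22.2, 23.8, 24.2 and 28.9 on high salt. For S2Ba rats these were 15.9, 20.8 and 21.2 and 16.8, 19.6, 23.5, 30.8 and 34. In the S2Bb groups they were 17, 18.7 and 22 and 16.5, 24.3 and 26.8. Mcm4 ranges overlapped throughout, and its log2 fold changes were 0.46 ± 0.16 (adjusted p = 0.066), 0.29 ± 0.16 (adjusted p = 0.211) and 0.28 ± 0.15 (adjusted p = 0.185) in SS, S2Ba and S2Bb rats, none of them called; in SS rats it was called under TMM scaling (adjusted p = 0.0474) and in DESeq2 (adjusted p = 0.0414).

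In SS rats the Mcm7 level was 10.3, 11.9 and 15.6 on normal salt and 10.5, 11.5, 14, 14.4 and 16.5 on high salt. S2Ba rats had Mcm7 levels of 7.07, 12.5 and 15.2 on normal salt and 12.8, 14.9, 15, 16.1 and 17 on high salt. In S2Bb rats Mcm7 was at 12.1, 14 and 16.3 on normal and 13.4, 15.1 and 18.2 on high salt. Mcm7 ranges overlapped in each strain, and its log2 fold changes were 0.12 ± 0.14 (adjusted p = 0.631), 0.34 ± 0.14 (adjusted p = 0.0939) and 0.12 ± 0.13 (adjusted p = 0.554). Its 95% intervals ran from -0.17 to 0.40 in SS, 0.06 to 0.63 in S2Ba and -0.15 to 0.39 in S2Bb rats. Cdc45, which joins the MCM ring to form the active helicase, had low levels in every group. Cdc45 levels in SS aortas were 0.455, 0.765 and 2.04 on normal salt and 0.767, 0.98, 1.42, 1.67 and 1.73 on high salt. In S2Ba aortas they were 0.194, 0.681 and 1.47 and 0.162, 0.961, 1.25, 2.27 and 2.68 in the same order. For S2Bb the levels were 0.825, 1.01 and 1.08 and 0.665, 1.06 and 1.78. In SS, S2Ba and S2Bb rats 0 of 5, 2 of 5 and 3 of 6 high salt libraries lay above all normal salt libraries, and the log2 fold changes of 0.31 ± 0.29 (adjusted p = 0.532), 0.55 ± 0.29 (adjusted p = 0.206) and 0.08 ± 0.28 (adjusted p = 0.87) were not called. With 2 clock components as covariates the S2Bb value was -0.38 for Cdc45, -0.06 for Mcm4, -0.18 for Mcm7 and -0.04 for Pcna. Without S2Bb high salt replicate 6 Cdc45 was at -0.03. Cdc6, which loads the helicase onto origins, rose in S2Ba (0.76 ± 0.26, adjusted p = 0.0451) and S2Bb rats (0.97 ± 0.25, adjusted p = 0.00457), and was at 0.66 ± 0.26 (adjusted p = 0.11) in SS rats, from 18 to 83 reads per group in all.

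Pcna is the sliding clamp of DNA polymerase. On normal salt SS libraries had Pcna levels of 23.1, 27 and 31.7, and on high salt 29.1, 31.3, 32.5, 33.4 and 34.7. Those of S2Ba rats went from 22.6, 30.7 and 37.9 to 35.6, 37.6, 38.2, 45.6 and 47.6. S2Bb libraries had 28.3, 31.4 and 39.6 on normal and 30.8, 33.3 and 38.5 on high salt. High salt libraries overlapped normal salt libraries in each strain, with 3 of 5 above all normal salt libraries in S2Ba rats and 0 of 6 in S2Bb rats. It rose in S2Ba rats (0.43 ± 0.11, adjusted p = 0.00608) and was at 0.23 ± 0.11 (adjusted p = 0.19) in SS and 0.05 ± 0.10 (adjusted p = 0.754) in S2Bb rats. Rrm1 and Rrm2 are the large and small subunits of ribonucleotide reductase, which makes deoxyribonucleotides. SS rats had Rrm1 levels of 25.4, 27.3 and 34.8 on normal salt and of 30.6, 33, 33.4, 34.3 and 38.1 on high salt. For S2Ba rats these were 28.1, 35.1 and 40.9 and 31.4, 37.1, 38.7, 48.5 and 56.3. In the S2Bb groups they were 25.7, 29.4 and 32.5 and 32.6, 37.4 and 43.1. Rrm1 ranges were apart in S2Bb rats, where it rose (0.37 ± 0.11, adjusted p = 0.0138), and overlapped in SS (0.24 ± 0.12, adjusted p = 0.191) and S2Ba rats (0.29 ± 0.12, adjusted p = 0.0869). Rrm2, the subunit made in S phase, rose in S2Ba (1.46 ± 0.37, adjusted p = 0.00732) and S2Bb rats (1.19 ± 0.36, adjusted p = 0.0146), with 0.68 ± 0.37 (adjusted p = 0.255) in SS rats.

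Tk1 and Tyms make thymidine nucleotides, by salvage and by methylation of dUMP. Tk1 rose in each strain, from 2.61 ± 1.12 to 5.55 ± 0.457 in SS, from 3.23 ± 0.494 to 8.33 ± 4.73 in S2Ba and from 2.14 ± 0.665 to 6.89 ± 2.86 in S2Bb rats, with ranges apart in SS and S2Ba rats. In SS rats the Tyms level was 4.73, 6.86 and 9.37 on normal salt and 7.08, 7.32, 7.6, 7.76 and 10.2 on high salt. S2Ba rats had Tyms levels of 7.4, 9.34 and 10.5 on normal salt and 8.73, 12.1, 12.6, 13.3 and 16.3 on high salt. In S2Bb rats Tyms was at 5.23, 7.65 and 9.04 on normal and 8.07, 9.48 and 10.5 on high salt. Tyms rose in S2Ba rats (0.44 ± 0.15, adjusted p = 0.0427) and was at 0.23 ± 0.15 (adjusted p = 0.334) in SS and 0.32 ± 0.14 (adjusted p = 0.101) in S2Bb rats, its ranges overlapping in each. The E cyclins, which start S phase with Cdk2, had low levels. Ccne2 rose in S2Ba (1.69 ± 0.37, adjusted p = 0.0018) and S2Bb rats (1.52 ± 0.35, adjusted p = 0.00182) and was at 1.01 ± 0.37 (adjusted p = 0.0784) in SS rats, where 4 of 5 high salt libraries exceeded all on normal salt. Fitted to the SS groups alone, limma called Ccne2 there (adjusted p = 0.0212). Ccne1 rose in S2Ba rats (1.27 ± 0.32, adjusted p = 0.00589), with 0.46 ± 0.32 (adjusted p = 0.374) in SS and 0.79 ± 0.30 (adjusted p = 0.0593) in S2Bb rats, and was listed at 0 reads in 1 SS and 1 S2Bb normal salt library.

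Mki67, which coats mitotic chromosomes and is absent from resting cells, and Top2a, the topoisomerase that disentangles sister chromatids, rose in each strain. Mki67 levels in SS aortas were 5.37, 9.79 and 14.3 on normal salt and 19.4, 20.7, 22.5, 25.2 and 26.5 on high salt. In S2Ba aortas they were 8.21, 10.1 and 20.2 and 15.6, 22.4, 31.8, 66.7 and 75.4 in the same order. For S2Bb the levels were 5.23, 6.4 and 12.7 and 18, 36.5 and 42.3. Mki67 ranges were apart in SS and S2Bb rats, and in S2Ba rats 1 of 5 high salt libraries lay within the normal salt range. Its log2 fold changes were 1.28 ± 0.31 (adjusted p = 0.0113), 1.60 ± 0.31 (adjusted p = 0.000694) and 2.17 ± 0.30 (adjusted p = 5.6e-06), folds of 2.42, 3.03 and 4.48 in SS, S2Ba and S2Bb rats. On normal salt SS libraries had Top2a levels of 3.0, 6.55 and 10.4, and on high salt 14.7, 15.9, 18.3, 20.9 and 23.2. Those of S2Ba rats went from 5.56, 7.11 and 17.5 to 13.4, 13.8, 25.5, 61.4 and 64.9. S2Bb libraries had 2.76, 3.35 and 11.4 on normal and 8.82, 32 and 38.4 on high salt. Top2a levels were apart in SS rats and overlapped in both congenic strains, through 1 normal salt library in each. It rose by 1.57 ± 0.41 (adjusted p = 0.0176), 1.82 ± 0.41 (adjusted p = 0.0027) and 2.41 ± 0.39 (adjusted p = 4.69e-05).

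Of the kinases and cyclins that drive mitosis, Cdk1 and Ccnb1 rose in all 3 strains. Ccna2, Aurka and Aurkb rose in both congenic strains, and the main test called none of them in SS rats. Cdk1, the mitotic kinase, went from 1.17 ± 0.854 to 3.37 ± 1.02 in SS rats, from 1.75 ± 0.806 to 7.70 ± 4.99 in S2Ba rats and from 1.08 ± 0.741 to 6.58 ± 3.45 in S2Bb rats, called in each, with ranges apart in S2Ba rats. Its partner cyclin Ccnb1 rose in each strain, by 1.21 ± 0.30 (adjusted p = 0.012), 1.32 ± 0.30 (adjusted p = 0.00254) and 1.70 ± 0.28 (adjusted p = 5.66e-05), with ranges apart in SS and S2Bb rats. Ccna2, the cyclin of S phase and G2, rose in S2Ba (1.57 ± 0.36, adjusted p = 0.00269) and S2Bb rats (1.95 ± 0.34, adjusted p = 9.11e-05) and was at 1.07 ± 0.36 (adjusted p = 0.0539) in SS rats. Aurora kinases, which act on spindle poles (Aurka) and on centromeres (Aurkb), rose in both congenic strains. Aurka was at 0.24 ± 0.26 (adjusted p = 0.596) in SS, 1.03 ± 0.26 (adjusted p = 0.0068) in S2Ba and 0.78 ± 0.25 (adjusted p = 0.021) in S2Bb rats, and Aurkb at 0.88 ± 0.33 (adjusted p = 0.0859), 1.47 ± 0.33 (adjusted p = 0.00225) and 1.47 ± 0.31 (adjusted p = 0.000902). Aurkb ranges were apart in SS rats, where the main test did not call it. In SS rats limma called Aurkb with clock components (adjusted p = 0.0268) and when fitted to the SS groups alone (adjusted p = 0.0439). No other setting that kept all libraries called Aurkb there. Limma called Ccna2 in SS rats with clock components (adjusted p = 0.0466) and in the SS groups alone (adjusted p = 0.0163). DESeq2 called it too (adjusted p = 0.0286), and no other setting that kept all libraries did. Birc5 and Cdca8, partners of Aurkb in the chromosomal passenger complex, also rose in both congenic strains, Birc5 by 1.20 ± 0.24 (adjusted p = 0.001) and 1.07 ± 0.23 (adjusted p = 0.00107). In SS rats Birc5 was at 0.35 ± 0.24 (adjusted p = 0.388) and Cdca8 at 0.64 ± 0.27 (adjusted p = 0.132). With clock components limma called Cdca8 there (adjusted p = 0.0275), and no other setting that kept all libraries did. Cdca3, which triggers the degradation of Wee1, rose in S2Ba (1.18 ± 0.37, adjusted p = 0.0265) and S2Bb rats (1.28 ± 0.35, adjusted p = 0.00755) and was at 1.09 ± 0.37 (adjusted p = 0.0575) in SS rats. Other settings called Cdca3 in SS rats, among them DESeq2 (adjusted p = 0.0486) and limma with clock components (adjusted p = 0.0417).

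Plk1, a kinase of mitotic entry and spindle assembly, was the mitosis gene called in no strain. SS rats had Plk1 levels of 0.20, 0.857 and 1.68 on normal salt and of 0.495, 0.511, 0.945, 1.52 and 1.71 on high salt. For S2Ba rats these were 0.171, 0.502 and 0.896 and 0.405, 0.50, 1.48, 2.36 and 4.22. In the S2Bb groups they were 0.309, 0.581 and 0.922 and 0.61, 1.37 and 1.86. Its ranges overlapped in each strain, and the log2 fold changes were 0.13 ± 0.33 (adjusted p = 0.835) in SS, 0.90 ± 0.33 (adjusted p = 0.0605) in S2Ba and 0.60 ± 0.31 (adjusted p = 0.172) in S2Bb rats. On the recovered reads edgeR (adjusted p = 0.0153) and DESeq2 (adjusted p = 0.00741) called it higher in S2Ba rats. In SS rats the sign turned without normal salt replicate 6 (-0.05) and without high salt replicate 4 (-0.02). Foxm1, the factor that switches on G2 genes, was called in S2Ba rats alone among the strains (0.62 ± 0.22, adjusted p = 0.0489) and was at 0.18 ± 0.22 (adjusted p = 0.641) in SS and 0.33 ± 0.21 (adjusted p = 0.262) in S2Bb rats; a difference between strains was not called.

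Among spindle and kinetochore genes, Kif11, the motor that pushes spindle poles apart, rose by 1.41 ± 0.35 (adjusted p = 0.0119), 1.76 ± 0.35 (adjusted p = 0.000743) and 2.11 ± 0.33 (adjusted p = 2.79e-05), and Tpx2, which nucleates spindle microtubules, also rose in each strain. In SS rats the Tpx2 level was 1.7, 3.02 and 5.76 on normal salt and 6.77, 7.42, 8.83, 8.98 and 9.49 on high salt. S2Ba rats had Tpx2 levels of 3.4, 4.25 and 8.63 on normal salt and 7.12, 8.41, 12.5, 26.5 and 28.6 on high salt. In S2Bb rats Tpx2 was at 1.19, 2.67 and 5.24 on normal and 5.18, 14.7 and 23.5 on high salt. Tpx2 ranges were apart in SS rats and overlapped in the congenic strains. Cenpf levels in SS aortas were 1.82, 5.08 and 7.45 on normal salt and 8.27, 11.8, 13.2, 14.6 and 15.3 on high salt. In S2Ba aortas they were 3.16, 4.99 and 11.9 and 6.15, 10.2, 16.5, 34.5 and 44.2 in the same order. For S2Bb the levels were 1.33, 2.7 and 4.76 and 8.01, 19.3 and 37.8. Cenpf, a kinetochore protein of G2 and mitosis, had ranges apart in SS and S2Bb rats and rose by 1.42 ± 0.41 (adjusted p = 0.0303), 1.65 ± 0.41 (adjusted p = 0.00637) and 2.60 ± 0.39 (adjusted p = 1.92e-05). Cenpe, the kinesin that carries chromosomes to the equator, rose in S2Ba (1.51 ± 0.33, adjusted p = 0.00209) and S2Bb rats (1.23 ± 0.32, adjusted p = 0.00484) and was at 0.56 ± 0.33 (adjusted p = 0.303) in SS rats. Nusap1, which binds spindle microtubules, and Kif2c, a kinesin that shortens them, rose in each strain, Nusap1 by 1.42, 1.57 and 2.17 and Kif2c by 1.26, 1.82 and 1.8 on the log2 scale.

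The spindle checkpoint holds anaphase until every chromosome is attached. Its kinases Ttk and Bub1b rose in each strain, Ttk by 1.21 ± 0.35 (adjusted p = 0.0308), 1.46 ± 0.35 (adjusted p = 0.00458) and 1.81 ± 0.34 (adjusted p = 0.000206). Cdc20, the activator of the anaphase-promoting complex that the checkpoint restrains, rose by 1.17 ± 0.33 (adjusted p = 0.0245), 1.19 ± 0.33 (adjusted p = 0.0129) and 1.01 ± 0.31 (adjusted p = 0.0182). On normal salt SS libraries had Bub1 levels of 5.64, 6.61 and 9.01, and on high salt 7.17, 7.76, 8.78, 9.0 and 11.5. Those of S2Ba rats went from 5.89, 7.21 and 12.8 to 5.18, 10.3, 10.5, 19.5 and 20.9. S2Bb libraries had 6.18, 7.02 and 7.97 on normal and 8.74, 12.2 and 13.9 on high salt. Bub1, a checkpoint kinase at the kinetochore, had ranges apart in S2Bb rats, where it rose (0.64 ± 0.21, adjusted p = 0.0247), and was at 0.33 ± 0.22 (adjusted p = 0.353) in SS and 0.57 ± 0.22 (adjusted p = 0.077) in S2Ba rats.

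Genes of the midzone and of cytokinesis, which divides the cell in the end, included Kif20a, which had the largest fold change of the 44 genes in S2Bb rats. SS rats had Kif20a levels of 0.50, 2.5 and 3.96 on normal salt and of 7.16, 7.17, 7.43, 10.2 and 13.3 on high salt. For S2Ba rats these were 1.94, 3.4 and 10.02 and 7.12, 8.0, 13.4, 29.2 and 36.7. In the S2Bb groups they were 0.821, 1.67 and 5.0 and 6.63, 16.5 and 31. Kif20a, a kinesin of the central spindle, had ranges apart in SS and S2Bb rats. It rose by 1.90 ± 0.45 (adjusted p = 0.0092), 1.98 ± 0.45 (adjusted p = 0.00249) and 2.73 ± 0.42 (adjusted p = 2.58e-05), folds of 3.73, 3.95 and 6.65. In SS rats the Prc1 level was 2.09, 3.75 and 6.99 on normal salt and 8.74, 11.2, 11.3, 12.2 and 14.4 on high salt. S2Ba rats had Prc1 levels of 2.82, 4.55 and 10.6 on normal salt and 10.04, 11.7, 13.2, 41.5 and 47.1 on high salt. In S2Bb rats Prc1 was at 1.48, 2.5 and 6.85 on normal and 7.2, 22.5 and 38.7 on high salt. Prc1, which bundles midzone microtubules, showed the same ranges, apart in SS and S2Bb rats, and rose by 1.51 ± 0.41 (adjusted p = 0.0209), 1.94 ± 0.41 (adjusted p = 0.00145) and 2.52 ± 0.39 (adjusted p = 2.58e-05). Anln levels in SS aortas were 7.0, 7.5 and 9.25 on normal salt and 12.7, 12.8, 14.3, 17.8 and 19.97 on high salt. In S2Ba aortas they were 4.63, 5.97 and 10.6 and 14, 14.9, 15.7, 27.5 and 39.4 in the same order. For S2Bb the levels were 3.62, 7.33 and 10.2 and 11.1, 18.6 and 30.8. Anln, the anillin scaffold of the contractile ring, was apart in all 3 strains and rose by 0.93 ± 0.26 (adjusted p = 0.0257), 1.55 ± 0.26 (adjusted p = 0.000179) and 1.46 ± 0.25 (adjusted p = 8.13e-05). Kif4a, Kif23 and Ect2, a chromokinesin, a midzone kinesin and the exchange factor that activates RhoA at the cleavage furrow, rose in each strain, Ect2 by 1.51 ± 0.39 (adjusted p = 0.0159), 1.88 ± 0.39 (adjusted p = 0.00122) and 2.07 ± 0.37 (adjusted p = 0.000135). Pbk, a kinase of mitotic cells, rose by 1.95, 2.00 and 2.00 on the log2 scale in SS, S2Ba and S2Bb rats, from means under 1 on normal salt.

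Many of the genes were high or low in the same libraries. In S2Ba rats on high salt, replicate 1 had the highest level of the group for 35 of 44 genes and replicate 6 for the other 9. Their mitosis sums were 613 and 524, against 132, 163 and 239 in replicates 3, 4 and 5. With replicates 1 and 6 left out, a choice made after the values were seen, 5 of 44 genes were called in S2Ba rats (Mki67, Birc5, Kif11, Kif2c and Anln), against 3.82% of all tested genes called higher in that fit, much nearer the background than the 37 genes above. All 44 fold changes stayed above 0, at a median log2 fold change of 0.78. On normal salt, S2Ba replicate 6 was highest for 36 of 44 genes, with a mitosis sum of 166 against 65.2 to 94.9 in the other 5 libraries. SS normal salt libraries fell into 3 with mitosis sums of 94.6 to 107 and 3 with sums of 50.5 to 60.8, and SS high salt libraries ran from 143 to 226. In S2Bb rats on high salt the sums were 420, 265, 311, 325, 184 and 118 in replicates 1 to 6, and on normal salt 50.2 to 107. High salt replicate 6, the lowest, was lowest of its group for 29 of 44 genes. The 2 classes parted in S2Bb high salt replicate 1, which had the highest mitosis sum of its group (420) but the lowest replication sum (136.5). That replication sum lay within the S2Bb normal salt range of 119 to 139.4. The library was highest of its group for 20 of 44 genes and lowest for 11.

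**Figure D4:**
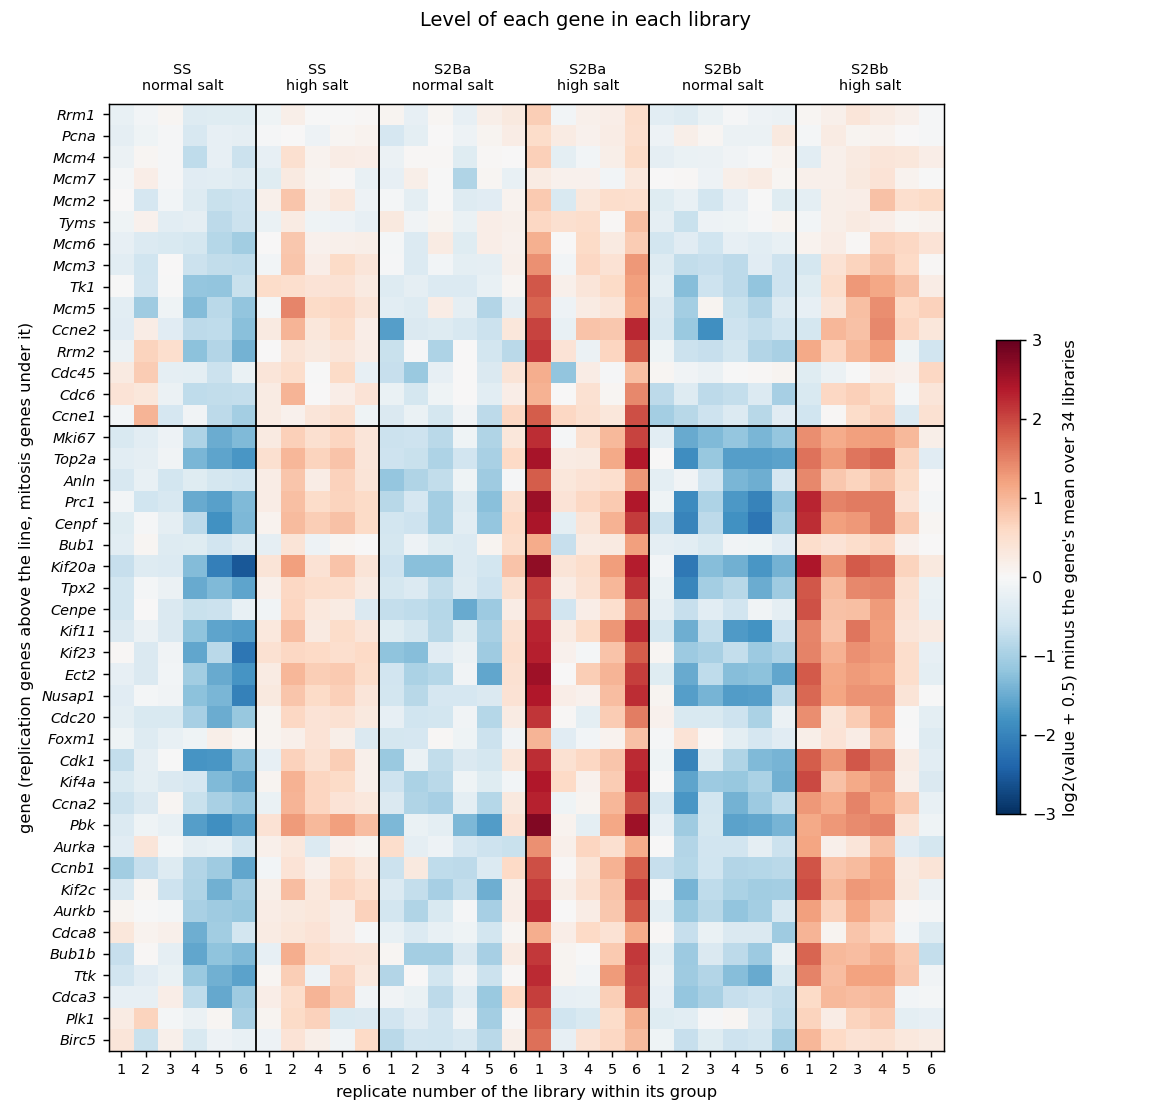
Level of each gene (rows) in each of 34 libraries (columns, by group and replicate number) as log2(value + 0.5) minus the gene's mean over the libraries; red is above and blue below that mean, on a scale from -3 to 3. S2Ba high salt replicates 1 and 6, with mitosis sums of 613 and 524, are red throughout the mitosis genes, and the pattern is paler in Rrm1, Pcna, Mcm4 and Mcm7.

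Clock gene levels differed between libraries as well. In SS rats on high salt, replicate 1 had an Arntl level of 74.3 and a mitosis sum of 143, and the other 4 libraries had Arntl levels of 2.43 to 11.4 and sums of 160 to 226. In S2Bb rats on high salt, replicates 1 to 3 had Arntl levels of 79.9 to 82.9 and mitosis sums of 265 to 420, replicate 4 had 20.6 and 325, and replicates 5 and 6 had Arntl levels of 4.44 and 2.83 with sums of 184 and 118. In S2Ba rats on high salt, replicates 1, 3 and 4 had Arntl levels of 50.4, 40.3 and 17.4 and mitosis sums of 613, 132 and 163. Replicates 5 and 6 of that group had Arntl levels of 75.4 and 76.8. Normal salt libraries of all strains had Arntl levels of 57.3 to 87.2. Libraries with an Arntl level in the normal salt range had mitosis sums of 143 in SS rats (1 library), 239 and 524 in S2Ba rats (replicates 5 and 6) and 265 to 420 in S2Bb rats (replicates 1 to 3). The part of clock phase in the result was not tested with these few libraries. With 2 components of 17 clock genes as covariates, 25 genes were called in SS, 32 in S2Ba and 19 in S2Bb rats, against 2.29%, 7.77% and 5.37% of all tested genes called higher, and the median log2 fold changes were 1.24, 1.43 and 1.06. Without S2Bb high salt replicates 4, 5 and 6 together, also chosen after the values were seen, 33 genes were called in S2Bb rats (9.11% of all tested genes called higher) at a median of 1.56.

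**Figure D5:**
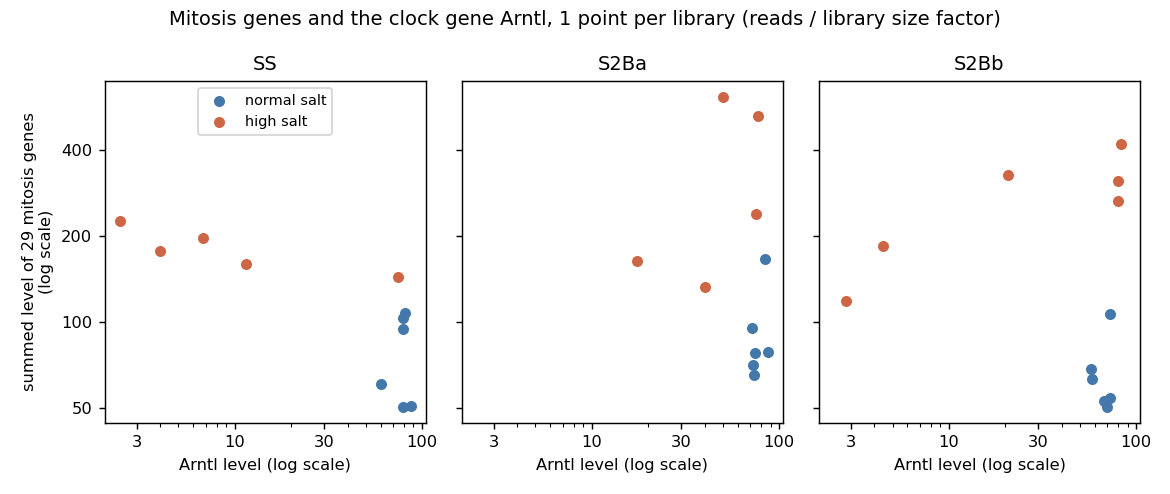
Summed level of 29 mitosis genes (y axis, log scale) against the level of the clock gene Arntl (x axis, log scale) in each library of SS, S2Ba and S2Bb rats on normal salt (blue) and high salt (orange). High salt libraries spread from 2.43 to 82.9 in Arntl while normal salt libraries stay between 57.3 and 87.2, and at Arntl levels near 80 S2Bb high salt libraries reach 265 to 420.

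Between strains, 1 of the 44 genes was called in 1 of 4 comparisons. On normal salt, 0 of 44 genes were called between S2Ba and SS rats in limma (0.267% of all tested genes), with 4 at an unadjusted p below 0.05, all higher in S2Ba rats (Mcm6, Rrm1, Tyms and Ccnb1). Between S2Bb and SS rats on normal salt 0 were called (1.44%), with 1 at an unadjusted p below 0.05 (Pcna, higher in S2Bb rats). On high salt, Tyms alone of the 44 genes was called higher in S2Ba than in SS rats (1.73% of all tested genes called), at a log2 difference of 0.61 ± 0.15 (SE, 95% interval 0.30 to 0.93, adjusted p = 0.035). Its high salt levels, given above, were 7.08 to 10.2 in SS and 8.73 to 16.3 in S2Ba rats, which overlap, and the call was lost with any of 8 of the 10 libraries left out, with no filter, with the compared groups alone in the fit and with clock components or surrogate variables. On high salt, S2Bb and SS rats differed in 0 genes (0.267%), with 2 at an unadjusted p below 0.05, Ccnb1 and Cenpe, both higher in S2Bb rats. edgeR and DESeq2 gave 0 genes in each of these comparisons but that of S2Ba and SS on high salt, where each gave 1.

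The salt response itself was not called different between strains for any of the 44 genes. The median difference in log2 fold change for mitosis genes was 0.32 between S2Ba and SS rats and 0.58 between S2Bb and SS rats, beside 0.013 and 0.017 over all tested genes; for replication genes it was 0.10 and 0.06. Between S2Ba and SS rats 0 genes were called (0% of all tested genes), with 2 at an unadjusted p below 0.05: Aurka (0.79, 95% interval 0.04 to 1.54) and Birc5 (0.85, 0.15 to 1.55). Between S2Bb and SS rats 0 were called (0.171%), with 3 at an unadjusted p below 0.05: Mki67 (0.89, 0.01 to 1.76), Birc5 (0.73, 0.04 to 1.41) and Cenpf (1.17, 0.01 to 2.34). Between S2Bb and S2Ba rats 0 were called (0%), and Pcna had an unadjusted p below 0.05, with a smaller response in S2Bb rats (-0.38, interval -0.69 to -0.08). edgeR and DESeq2 also called 0 genes in all 3. These intervals are wide beside the responses, and the sign of the median difference depended on the setting. With clock components as covariates the median over all 44 genes went from 0.25 to -0.15 between S2Ba and SS rats and from 0.48 to -0.21 between S2Bb and SS rats, and with surrogate variables to 0.03 and 0.04. Leaving out S2Ba high salt replicates 1 and 6 took the median difference of all 44 genes between S2Ba and SS rats from 0.25 to -0.31. The comparisons share the SS libraries.

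Other genes of the same machinery, from lists put together with earlier results of these data known, were counted in the same way. Beside each count stand the shares of all tested genes called higher (4.44% in SS, 8.12% in S2Ba and 10.7% in S2Bb rats) and lower (3.94%, 7.04% and 11.4%), and in a list of few genes 1 or 2 calls cannot be told from that background. Of 28 tested genes of the kinetochore, spindle and condensin, 9 rose in SS, 21 in S2Ba and 23 in S2Bb rats and 0 fell, at median log2 fold changes of 0.74, 1.17 and 1.33. Ndc80, the kinetochore subunit that grips microtubules, rose by 1.33 ± 0.30 (adjusted p = 0.00718), 2.10 ± 0.30 (adjusted p = 3.09e-05) and 1.91 ± 0.28 (adjusted p = 1.47e-05) in SS, S2Ba and S2Bb rats. Its level went from 1.23 ± 0.546 to 3.71 ± 0.731, from 1.25 ± 0.440 to 7.80 ± 4.59 and from 0.874 ± 0.529 to 4.71 ± 1.77. Hmmr, a spindle protein, rose by 1.16 ± 0.32 (adjusted p = 0.0241), 1.60 ± 0.32 (adjusted p = 0.000907) and 2.00 ± 0.31 (adjusted p = 2.23e-05). Racgap1, the partner of Kif23 at the midzone, rose in each strain too, by 1.07, 1.55 and 2.03. Of 21 tested genes of licensing and replication, 4 rose in SS, 6 in S2Ba and 4 in S2Bb rats and 0 fell, against 4.44%, 8.12% and 10.7% of all tested genes, at medians of 0.20, 0.31 and 0.27. Cdc7, the kinase that fires origins, and Uhrf1, which keeps DNA methylation through replication, rose in all 3 strains, Cdc7 by 0.84 ± 0.24 (adjusted p = 0.0278), 1.41 ± 0.24 (adjusted p = 0.000197) and 1.35 ± 0.23 (adjusted p = 7.52e-05). Pole, the catalytic subunit of a replicative polymerase, rose in both congenic strains, by 1.02 and 1.00, and Rpa2, which binds single-stranded DNA, in SS (0.60 ± 0.15, adjusted p = 0.0127) and S2Bb rats (0.46 ± 0.14, adjusted p = 0.0181).

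Of the 6 G1 cyclins and kinases, Ccnd1 rose in S2Ba rats (0.98 ± 0.18, adjusted p = 0.000457), from 36.6 ± 4.25 to 77.3 ± 31.6, and 0 were called in SS and S2Bb rats. Among 5 tested inhibitors of cyclin-dependent kinases, Cdkn1c (p57) fell in SS (-0.68 ± 0.15, adjusted p = 0.00614) and S2Bb rats (-0.65 ± 0.14, adjusted p = 0.0012), from 11.05 ± 1.35 to 6.68 ± 0.719 and from 13.8 ± 3.11 to 8.51 ± 0.943. Cdkn1a (p21) rose in S2Bb rats (0.74 ± 0.26, adjusted p = 0.0365). Of 13 tested pocket proteins, E2F factors and DREAM subunits, 0 were called in SS rats, 3 rose and 1 fell in S2Ba rats (8.12% and 7.04% of all tested genes) and 3 rose in S2Bb rats (10.7%). E2f7, a repressor of E2F targets, and Mybl2, the Myb subunit that joins MuvB in S phase, rose in both congenic strains, E2f7 by 1.22 ± 0.27 (adjusted p = 0.00246) and 0.78 ± 0.26 (adjusted p = 0.0278). The 1 gene that fell, Rb1 (-0.38 ± 0.11, adjusted p = 0.0134), encodes the retinoblastoma protein, and 1 of 13 is near the background. Of 8 genes that control entry into mitosis, Cdc25a and Cdc25c, phosphatases that activate cyclin-dependent kinases, and Pkmyt1, a kinase that restrains Cdk1, rose in both congenic strains and 0 were called in SS rats. Of 7 p53 targets 1 rose in SS rats (Mdm2), 2 rose and 1 fell in S2Ba rats and 2 rose in S2Bb rats, against 4.44% higher in SS, 8.12% higher and 7.04% lower in S2Ba and 10.7% higher in S2Bb rats. Ccng1, a cyclin induced by p53, rose from 199.98 ± 27.2 to 313 ± 89.2 in S2Ba and from 156 ± 9.53 to 272 ± 132 in S2Bb rats.

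Single libraries stood out here as well. S2Ba high salt replicates 3 and 4, with mitosis sums of 132 and 163, had levels of 124.7 and 91.9 for Ccnd1, 83.3 and 67.3 for Cdkn1a and 417 and 397 for Ccng1. Replicates 1 and 6, with sums of 613 and 524, had 67.3 and 57.2 for Ccnd1, 44.3 and 33.3 for Cdkn1a and 284 and 255 for Ccng1. Replicate 5, with a sum of 239, had 45.2 for Ccnd1, 36.5 for Cdkn1a and 214 for Ccng1. S2Bb high salt replicate 1, with the highest mitosis sum of its group, had 27.4 for Ccnd1, 88.5 for Cdkn1a and 537 for Ccng1. Among S2Ba high salt libraries, replicates 3 and 4 thus had the highest Cdkn1a levels and the lowest mitosis sums. In S2Bb high salt replicate 1 a high Cdkn1a level went with a high sum. Among S2Ba normal salt libraries, replicates 4 and 6 had the highest Cdkn1a levels (55.1 and 41.8) and the highest sums (94.9 and 166).

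Markers of the vessel wall were those of an artery, with sums of 5 smooth muscle markers from 18522 to 25587 in every library, and 0, 0 and 1 of them called for salt in SS, S2Ba and S2Bb rats (Smtn, lower in S2Bb rats). That 1 of 5 cannot be told from the 11.4% of all tested genes called lower in S2Bb rats. Of 7 macrophage markers, 0 rose in SS, 2 in S2Ba (C1qa and C1qb) and 1 in S2Bb rats (C1qb), against 4.44%, 8.12% and 10.7% of all tested genes, so the count of 1 in S2Bb rats is near the background. Their median log2 fold changes were -0.03, 0.55 and 0.53 in SS, S2Ba and S2Bb rats, with 2, 7 and 6 of 7 above 0. The medians over all tested genes were -0.018, -0.011 and -0.0016. Their summed levels were 249.6 to 317 on normal and 181 to 343 on high salt in SS rats, 194 to 351 and 244 to 666 in S2Ba rats, and 199 to 282 and 239 to 689 in S2Bb rats. The highest macrophage sums were 666 in S2Ba high salt replicate 4 and 689 in S2Bb high salt replicate 1, with mitosis sums of 163 and 420, while S2Ba high salt replicates 1 and 6 had macrophage sums of 398 and 266. Their part in the result was not tested. Among T and NK cell markers, Cd3e, Cd3d, Nkg7 and Gzmb had mean levels of 0.27, 0.16, 0.23 and 0.029 and were at 0 in 4, 6, 3 and 25 of 34 libraries. Cd8a had a mean level of 0.79 and Cd4 of 33.1. Of the 6 on that list 2 were tested and 0 called, and their sums were 23.4 to 59.2 over all libraries, nearly all of it Cd4. The 5 B and plasma cell markers had sums of at most 2.52 and none reached the filter. Neutrophil sums were at most 10.4, with S100a8 at 0 in 18 and Elane at 0 in 27 libraries, and the tested gene was not called.

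Of 5 fibroblast markers, 1 fell in SS (Pdgfra), 2 in S2Ba (Col1a1 and Dpt) and 2 in S2Bb rats (Col1a1 and Lum), against 3.94%, 7.04% and 11.4% of all tested genes called lower. The median log2 fold changes of the 5 were -0.28, -0.32 and -0.06. Fibroblast sums were 7503 to 10660.0 on normal and 5221 to 8521 on high salt in SS rats. In S2Ba rats they were 5515 to 12091 and 2743 to 5335, and in S2Bb rats 6403 to 10273 and 3998 to 6999. Col1a1 was the largest part of these sums, with a mean level of 4721, and Dcn was next at 1456. Of 4 tested endothelial markers, 2 fell in SS (Cdh5 and Kdr), 1 rose in S2Ba (Vwf) and 1 fell in S2Bb rats (Kdr). The shares of all tested genes were 3.94% lower in SS, 8.12% higher in S2Ba and 11.4% lower in S2Bb rats, and 1 call of 4 cannot be told from them. Endothelial sums ran from 181 to 402 on normal and 217 to 484 on high salt over the strains. Markers of fat (5 tested), red cells (3), Schwann cells (2) and skeletal and cardiac muscle (2) gave 0 calls apart from Ckm, lower in S2Ba and S2Bb rats. Red cell sums differed widely, from 24.3 to 1877, and fat sums from 73.6 to 1324. Their part in the salt response of the cell cycle genes was not tested.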

How the data were processed

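Total RNA sequencing libraries (TruSeq) of rat thoracic aorta were analysed, 34 of 36 samples in the labels. The deposited values are a signal per gene, read counts divided by a size factor of each library, and were not corrected for gene length. Per the submitters' processing notes, STAR 2.3.1, edgeR 3.6.8, R 3.2.3, bcl2fastq 1.8.4 and FastQC were used. Build, annotation, counter and use of strand were not given in the sources used here, so overlapping and antisense genes cannot be told apart. Whole reads were recovered from the deposited signal, with 100% of values whole within 0.01 reads, and gave 8753735 to 15168833 reads per library. Rows without a symbol numbered 29.

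The main test was limma 3.58.1 (R 4.3.3, trend) on log2(value + 0.5) with 6 group means, over 13475 genes with a mean of at least 0.5; 12631 genes were below it. P-values were adjusted by the Benjamini-Hochberg method over all tested genes, two-sided, and a gene was called below 0.05. The script was tested on simulated data. Alternatives were pseudocounts of 0.1 and 1, a minimum mean of 0.2 or none, TMM and upper quartile scaling, edgeR 4.0.16 and DESeq2 1.42.0 on the recovered reads, the compared groups alone, 2 clock components or 8 surrogate variables (sva 3.50.0) as covariates, and each library left out in turn. The members and lists were chosen with earlier results of these data known. Any member could be named. Levels by group (every library for groups of 5, the lowest, median and highest for groups of 6) were given for the 8 members of each class with the highest mean, those called between strains and those not called for salt. Of other lists, up to 4 called genes with the smallest adjusted p were named, and further ones were named after their values were seen. Promoter sequences are from RefSeq (GRCr8).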

Additional observations from a re-analysis of the deposited data

Results flagged for a closer look

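In groups of 5 or 6 libraries, 120 groups of values were examined for a single library far from the rest (Dixon's 95% value), for the summed levels and the members given in full, and 13 were found. Chance gives about 1 in 20, and the genes are not independent of each other. In S2Ba normal salt replicate 6 the mitosis sum was 166 (next highest 94.9), with Top2a at 17.5 (7.40), Prc1 at 10.6 (5.63), Cenpf at 11.9 (6.08), Kif20a at 10.02 (3.87) and Tpx2 at 8.63 (4.53). S2Bb normal salt replicate 1 had a mitosis sum of 107 (68.4), with Mki67 at 12.7 (6.80), Top2a at 11.4 (4.86) and Kif20a at 4.998 (1.90). SS high salt replicate 2 stood out for Tyms at 10.2 (7.76) and Mcm6 at 14.3 (9.12), and SS normal salt replicate 2 for Bub1 at 9.01 (6.90).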

How the results depend on the processing

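The fold changes of the called genes kept their direction in each strain under every alternative run. Calls were lost more often than gained. Counted by gene and setting, leaving out 1 library aside, a main call was lost 40 times and a call gained 13 times in SS rats. The same counts were 85 and 9 in S2Ba rats and 44 and 4 in S2Bb rats. Of the counts of called genes, that of SS rats (24) became 12 with no filter and 2 with surrogate variables, that of S2Ba rats (37) became 6 with surrogate variables and 5 without high salt libraries 1 and 6, and that of S2Bb rats (36) became 19 with clock components and 15 with surrogate variables. Without filter more genes enter both the fit and the adjustment. Why the counts moved was not tested for any setting. The call between S2Ba and SS rats on high salt (1) became 0 with no filter, only the groups compared, clock components, surrogate variables or S2Ba high salt libraries 1 and 6 left out. Leaving out 1 library at a time gave 9 to 27 genes in SS, 29 to 41 in S2Ba and 33 to 37 in S2Bb rats, 0 to 1 between S2Ba and SS on high salt and 0 in the other comparisons of strains and of responses. With all libraries, 4.44% of all tested genes were called higher in SS, 8.12% in S2Ba and 10.7% in S2Bb rats. In SS rats that share moved with the library left out, as given above. For S2Ba and S2Bb rats the shares with 1 library left out are not given here. Fold changes that turned were those of genes not called: Plk1 in SS rats (-0.052 to 0.276 with single libraries left out, below 0 without normal salt replicate 6 and, at -0.019, without high salt replicate 4), and in S2Bb rats Cdc45 (-0.38), Mcm4 (-0.061), Mcm7 (-0.18) and Pcna (-0.041) with clock components and Cdc45 without high salt replicate 6 (-0.029, in a range to 0.164 with single libraries left out) or replicates 4, 5 and 6 (-0.17). The 2 settings that leave out several libraries were chosen after seeing the data. No paired analysis was possible because the replicate numbers were given in accession order and pair no libraries. Depth limits the genes with few reads, such as Cdc6, with 18 to 83 reads per group.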
